A study of Mus musculus with 4 samples.

Results

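The AP-1 and ATF factors described here are 9 genes of the basic leucine zipper (bZIP) family of transcription factors, namely Fos, Fosb, Fosl2, Jun, Junb, Jund, Atf3, Atf4 and Batf. They were taken by symbol from the annotation of the array, which assigns 12 probe sets to them, out of 12393 named genes and 22690 probe sets. A probe set is the group of oligonucleotides on an Affymetrix array that together measure a transcript. Of the 9 genes, 7 had 1 probe set, while Jun and Atf4 had more. All 9 were measured above the floor of the scale on all 4 arrays.

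The arrays profile 4 populations sorted from the bone marrow of untreated C57BL/6 mice, 8 weeks old, backcrossed for at least 10 generations. The study asks how Gfi1, a zinc finger repressor needed for neutrophils, directs precursors to the monocytic or the granulocytic fate. All mice carried green fluorescent protein (GFP) knocked into the Gfi1 locus, and no wild-type array was analysed here. Gfi1-deficient monocytes were the CD11b+, Gr1-low fraction of mice homozygous for the knock-in (genotype GFP:Gfi1 KI/KI), for which the labels name no GFP gate. GFP-low and GFP-high cells were CD11b+, Gr1-low fractions of heterozygous mice (GFP:Gfi1 KI/WT), in which GFP reports Gfi1 activity and 1 intact Gfi1 allele remains. Granulocytes were CD11b+, Gr1-high cells of heterozygous mice. Each population was measured on 1 array, so there is no replicate spread and no test, and the values describe these 4 RNA samples. The labels do not say how many animals gave each sample.

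AP-1 is a dimer of bZIP proteins. Fos proteins bind DNA as partners of Jun proteins, whereas Jun proteins can also pair with each other and with ATF proteins. Many Fos and Jun genes are immediate early genes, transcribed within minutes when growth factor, cytokine or stress kinases are activated, without new protein synthesis. Atf3 is induced by stress and Toll-like receptor signals and restrains inflammatory genes in macrophages. Atf4 carries the integrated stress response and is controlled largely at translation. Batf lacks a transactivation domain and pairs with Jun proteins and with interferon regulatory factors. In myeloid cells, Jun proteins have been linked to monocytic differentiation and JunB to restraint of myeloid expansion.

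The levels are the deposited values, on a log2 scale, for the probe set of each gene with the highest mean. A difference is 1 log2 level minus another, and a difference of 1 is 2-fold. The floor, under which values were not read as a level, was the 40th percentile over the arrays, or 5.18. As a measure of error, the differences given by separate probe sets of the same gene were compared. On this basis a difference had an SD of 0.16 between Gfi1-deficient and GFP-low monocytes, 0.27 for GFP-high minus GFP-low cells and for Gfi1-deficient minus GFP-high cells, and 0.32 to 0.39 for the comparisons with granulocytes. It is called the probe-set SD below, and it covers disagreement between probe sets and not the spread between animals.

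The sorted populations were compared with marker genes. The summed signal of 7 monocyte markers was, as log2, 15.07 for Gfi1-deficient and 15.17 for GFP-low monocytes, against 11.78 in granulocytes and 10.69 in GFP-high cells. The summed signal of 5 neutrophil precursor markers was highest in GFP-high cells, at 15.46, against 13.53 in Gfi1-deficient monocytes, 10.98 in GFP-low monocytes and 10.70 in granulocytes. The labels call the GFP-high fraction monocytes. Its summed monocyte markers were the lowest of the 4 arrays, so it is called GFP-high Gr1-low cells here. Of single markers, Cd48 (7.10 against 7.78) and F13a1 (8.90 against 9.08) were lower in granulocytes than in GFP-high cells. Eosinophil markers summed to 12.50 in GFP-high cells and 10.81 in Gfi1-deficient monocytes, against 7.80 to 7.91 on the other arrays, with 1 of the 4 measured, Il5ra, below the floor throughout. Of 10 measured B, T and NK cell markers, Pax5, Cd3g and Ncr1 were below the floor on all arrays, while Cd79a, Cd79b and Cd3e were above it on all 4. Erythroid sums lay between 8.03 and 9.42, basophil and mast cell sums between 8.54 and 9.09, and megakaryocyte and platelet sums between 7.99 and 8.65. Dendritic cell markers summed to 12.33 in GFP-low monocytes and to between 8.93 and 10.82 elsewhere. The Gfi1 probe set read 10.31 in GFP-high cells, 7.31 in granulocytes and 3.74 in GFP-low monocytes, in the order of the reporter labels, and 5.18 in Gfi1-deficient monocytes, just below the floor. Xist was low on the array of Gfi1-deficient monocytes only (5.80 against 9.56 to 10.93), where the Y-linked Eif2s3y read 8.31, so sex differs together with genotype.

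Promoter sequences are shown for 4 genes that carry the contrasts described below. Atf3 had the widest range over the arrays, Jun and Fosb had the closest profiles of any pair of the 9 factors, and Junb had the widest range among the Jun genes. Each is the 250 bases before the annotated start, from RefSeq on build GRCm38.p6, read 5′ to 3′ on the strand of the gene. Atf3 lies at chr1:191183334-191183583 on the minus strand, Jun at chr4:95052223-95052472 on the minus strand, Fosb at chr7:19310046-19310295 on the minus strand and Junb at chr8:84978749-84978998 on the minus strand. Capitals mark matches, on either strand, to the motifs named after the sequences.
Atf3: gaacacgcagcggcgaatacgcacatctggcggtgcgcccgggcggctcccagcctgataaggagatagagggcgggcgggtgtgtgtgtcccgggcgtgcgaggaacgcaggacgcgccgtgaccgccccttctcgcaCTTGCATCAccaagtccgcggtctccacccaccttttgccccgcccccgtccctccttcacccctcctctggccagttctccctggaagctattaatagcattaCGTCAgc
Jun: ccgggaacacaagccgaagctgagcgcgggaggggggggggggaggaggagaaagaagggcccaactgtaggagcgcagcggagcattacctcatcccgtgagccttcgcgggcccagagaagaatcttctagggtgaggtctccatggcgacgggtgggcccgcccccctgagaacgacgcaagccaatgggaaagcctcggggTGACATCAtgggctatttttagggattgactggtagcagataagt
Fosb: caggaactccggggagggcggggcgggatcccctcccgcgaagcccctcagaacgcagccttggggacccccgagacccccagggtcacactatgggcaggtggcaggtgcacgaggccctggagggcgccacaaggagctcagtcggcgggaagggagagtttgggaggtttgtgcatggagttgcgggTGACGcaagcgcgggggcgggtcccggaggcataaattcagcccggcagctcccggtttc
Junb: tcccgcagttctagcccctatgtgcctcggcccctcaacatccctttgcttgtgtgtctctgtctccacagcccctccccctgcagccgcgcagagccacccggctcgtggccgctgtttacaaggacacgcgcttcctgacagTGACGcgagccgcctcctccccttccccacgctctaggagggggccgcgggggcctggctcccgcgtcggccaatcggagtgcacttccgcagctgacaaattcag

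Windows of 250 bases before to 50 after the start were found for all 9 factors and searched on both strands. The AP-1 element TGACTCA had 0 matches in the 9 windows, and it occurs in 5.20% of 32851 windows of this length. The cyclic AMP response element TGACGTCA had 0 matches (1.79% of windows), as did the CArG box, the core of the serum response element (1.63%). Sites further from the start than these windows were not searched, so 0 matches do not mean that a gene lacks the element. The composite C/EBP and ATF element TGATGNAAN was matched in Atf3 alone, 111 to 103 bases before the start, and occurs in 3.95% of windows. A further pair of motifs was searched after the windows had been read. TGACATCA, known as an AP-1 site of the Jun promoter that Jun itself occupies, was matched in Jun 45 to 38 bases before the start (3.62% of windows). The core TGACG, which lies within TGACGTCA, was matched in 6 of 9 windows, those of Atf3, Atf4, Batf, Fos, Fosb and Junb, and occurs in 20.8% of all windows. A match describes the letters and not binding.

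Among the Fos genes, the 3 members differed in pattern. Fos, the classic partner of Jun, read 13.45 in Gfi1-deficient monocytes, 13.51 in GFP-low monocytes, 12.68 in GFP-high cells and 13.57 in granulocytes. It was lowest in GFP-high cells, and the other 3 arrays lay within 0.12 of each other, less than the probe-set SD. Fos was 1.78-fold lower in GFP-high than in GFP-low cells and 1.86-fold lower than in granulocytes, under the 2-fold rule. Its signal ranked at or above the 99.2 percentile of its array on all 4, near the upper end of the scale (maximum 14.50). Whether differences are compressed at such levels was not tested.

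Fosb, a close relative of Fos, read 9.35 in Gfi1-deficient monocytes, 9.53 in GFP-low monocytes, 8.02 in GFP-high cells and 7.92 in granulocytes. Both Gr1-low populations with high monocyte markers were therefore higher than both others. The log2 difference from GFP-low monocytes was -1.51 for GFP-high cells and -1.61 for granulocytes, 2.85-fold and 3.05-fold lower. GFP-high cells and granulocytes differed by 0.10, less than the probe-set SD of 0.32. Fosl2, which encodes the Fra-2 protein, stood out in granulocytes instead. It read 7.05 in Gfi1-deficient monocytes, 7.15 in GFP-low monocytes, 6.97 in GFP-high cells and 8.47 in granulocytes. The 3 Gr1-low populations lay within 0.19, and granulocytes were 2.49-fold higher than GFP-low monocytes and 2.84-fold higher than GFP-high cells. Granulocytes also had the highest summed B cell (8.80 against 7.44 to 8.26) and T cell markers (8.93 against 6.86 to 7.56), with Cd79a at 7.47 and Cd3d at 8.48, and their part in this difference was not tested.

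**Figure D1:**
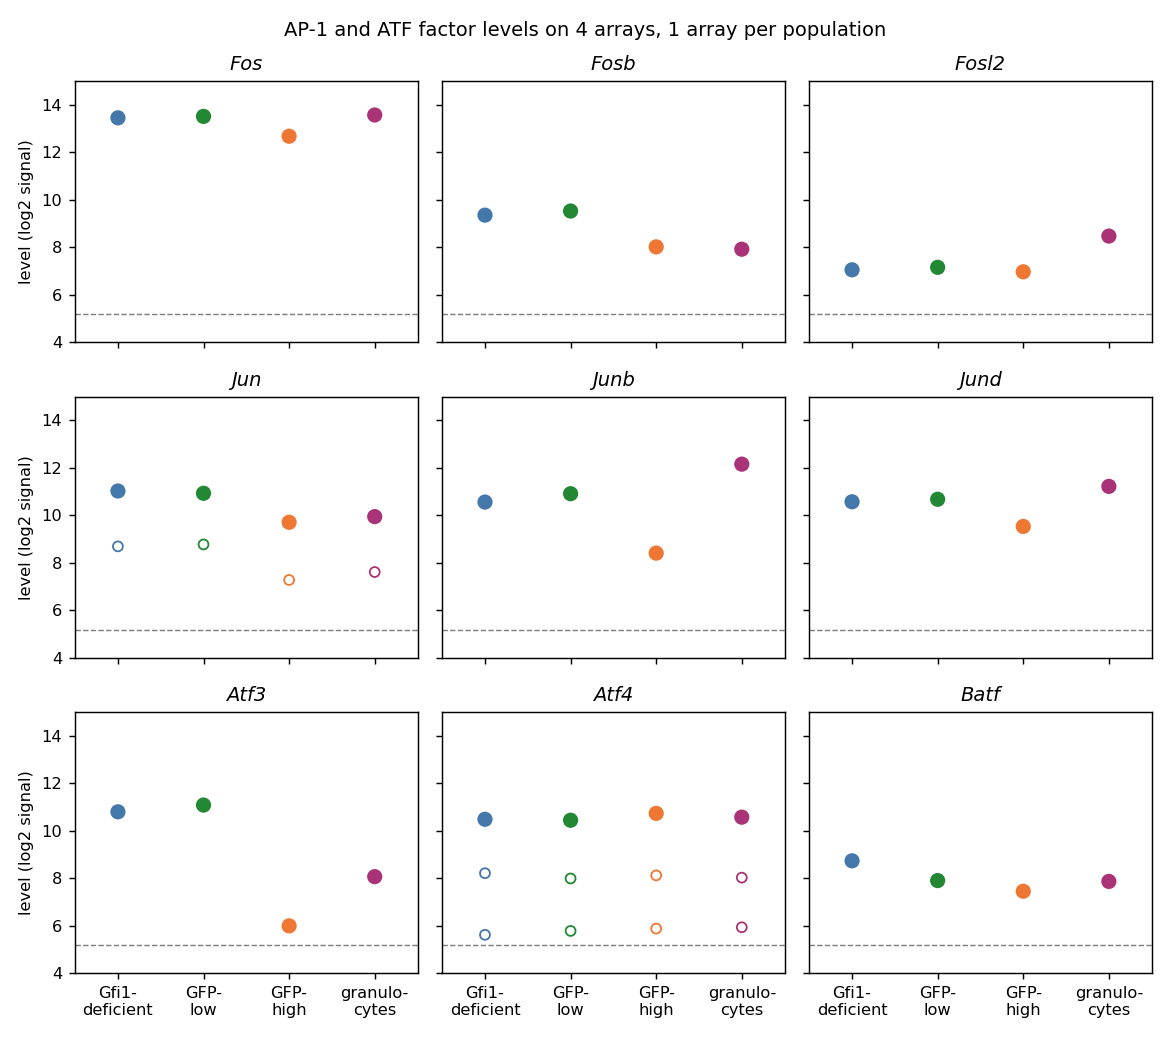
Log2 level of each of the 9 AP-1 and ATF factors (y axis) on the 4 arrays (x axis), with 1 array per population. Filled points are the probe set that stands for the gene, open points the other probe sets of Jun and Atf4, and the dashed line the floor at 5.18. Levels are to be compared within a gene. Atf3 spans 5.09 log2 units and Junb 3.75, while Atf4 stays between 10.45 and 10.74.

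Jun and Junb differed in where they were highest, Jun in Gfi1-deficient and GFP-low monocytes and Junb in granulocytes. Jun, the founding AP-1 subunit, read 11.03 in Gfi1-deficient monocytes, 10.93 in GFP-low monocytes, 9.71 in GFP-high cells and 9.95 in granulocytes. As with Fosb, Gfi1-deficient and GFP-low monocytes were the higher pair, and the 2 arrays within each pair differed by less than the probe-set SD. Jun was 2.33-fold lower in GFP-high than in GFP-low cells. In granulocytes it was 1.98-fold lower than in GFP-low monocytes, a log2 difference of -0.98, just short of the 2-fold rule. A further Jun probe set gave 8.69, 8.78, 7.28 and 7.61 in the same order, with differences from GFP-low monocytes of -1.50 for GFP-high cells and -1.16 for granulocytes.

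Junb, which can oppose Jun at some targets, read 10.56 in Gfi1-deficient monocytes, 10.91 in GFP-low monocytes, 8.41 in GFP-high cells and 12.16 in granulocytes. The arrays were thus apart at each step of this order by more than the probe-set SD, with granulocytes highest and GFP-high cells lowest. Granulocytes were 13.4-fold higher than GFP-high cells, and only 26 of 8457 genes had a larger difference in that direction. Junb was 5.67-fold lower in GFP-high than in GFP-low cells, and 2.37-fold higher in granulocytes than in GFP-low monocytes.

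Jund, the most broadly expressed Jun gene, had a narrower profile of the same order, at 10.57, 10.68, 9.53 and 11.22 for Gfi1-deficient monocytes, GFP-low monocytes, GFP-high cells and granulocytes. GFP-high cells were again lowest, 2.21-fold below GFP-low monocytes and 3.22-fold below granulocytes. Granulocytes exceeded GFP-low monocytes by 0.54, which is beyond the probe-set SD of 0.35 but under 2-fold. Jun and Junb therefore stood on opposite sides in granulocytes relative to GFP-low monocytes, at -0.98 and 1.25.

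Among the ATF and Batf genes, Atf3 had the widest range of all 9. It read 10.81 in Gfi1-deficient monocytes, 11.09 in GFP-low monocytes, 6.00 in GFP-high cells and 8.07 in granulocytes. Its order over the arrays was that of the summed monocyte markers, highest in GFP-low and lowest in GFP-high cells. In these bulk samples, fewer cells of a type and less RNA per cell cannot be told apart, and the part of cell composition in this order was not tested. Atf3 was 34.0-fold lower in GFP-high than in GFP-low cells, where 8 of 8232 genes had a more negative difference. It was 27.9-fold higher in Gfi1-deficient monocytes than in GFP-high cells, with 13 of 8195 genes further in that direction. Granulocytes lay between, 8.09-fold below GFP-low monocytes and 4.20-fold above GFP-high cells. The level in GFP-high cells lay near the floor, and a floor at the 60th percentile gave a difference of -4.28 from GFP-low monocytes and 1.27 between granulocytes and GFP-high cells.

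Atf4, the effector of the integrated stress response, was the flattest of the 9. Its main probe set read 10.49 in Gfi1-deficient monocytes, 10.45 in GFP-low monocytes, 10.74 in GFP-high cells and 10.58 in granulocytes. With the arrays ordered by level, no neighbours differed by more than the probe-set SD, and GFP-high cells exceeded GFP-low monocytes, the 2 ends of that order, by 0.29 against an SD of 0.27. The other Atf4 probe sets spanned 8.00 to 8.22 and 5.63 to 5.94, so each of the 3 stayed within 0.32 over the arrays. Since Atf4 is controlled largely at translation, its transcript level does not give its activity.

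Batf was the factor in which Gfi1-deficient monocytes stood apart. It read 8.74 in Gfi1-deficient monocytes, 7.91 in GFP-low monocytes, 7.46 in GFP-high cells and 7.87 in granulocytes. Gfi1-deficient monocytes exceeded GFP-low monocytes by 0.83, or 1.78-fold, which is 5.05 times the probe-set SD though under 2-fold. Of 8010 genes, 90 had a larger difference in that direction, or 1.12%. Against GFP-high cells the difference was 1.28, or 2.43-fold. GFP-low monocytes and granulocytes differed by 0.03, less than the probe-set SD.

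The 9 factors were then read across the 6 comparisons of the arrays, which share arrays and so are not independent. In GFP-high against GFP-low cells, 5 of 9 factors were at least 2-fold lower (Fosb, Jun, Junb, Jund and Atf3) and 0 higher. Of the 8232 named genes above the floor in this comparison, 9.61% were lower by that size and 9.03% higher. The median difference was -1.14 over the factors and 0.03 over all genes. Atf4 alone was higher in GFP-high cells, by 0.29. Counting over all 4 arrays, 7 of 9 factors had their lowest level in GFP-high cells, the exceptions being Fosb (granulocytes) and Atf4 (GFP-low monocytes). GFP-high cells had the lowest level for 22.7% of 8621 genes. For Fosl2 and Jun, the gap between GFP-high cells and the next array was within the probe-set SD (0.08 against 0.27 and 0.24 against 0.32). The lowest array of Fosb and of Atf4 was also within the SD of the next (0.10 against 0.32 and 0.04 against 0.16).

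In granulocytes against GFP-low monocytes, the factors went both ways. Fosl2 and Junb were at least 2-fold higher (2 of 9, with 10.0% of 8503 genes) and Fosb and Atf3 at least 2-fold lower (2 of 9, with 18.2% of genes), and the median was 0.06. The number lower was close to the share over all genes. Granulocytes had the highest level of 4 of 9 factors, Fos, Fosl2, Junb and Jund, near the 38.3% of all genes that peaked there. Against GFP-high cells, 4 of 9 factors were at least 2-fold higher in granulocytes (Fosl2, Junb, Jund and Atf3, with 8.93% of 8457 genes) and 0 lower (16.4% of genes), with a median of 0.89 against 0.03 over all genes. Against Gfi1-deficient monocytes, Fosl2 and Junb were at least 2-fold higher in granulocytes (11.2% of 8520 genes) and Fosb, Jun and Atf3 at least 2-fold lower (20.3% of genes).

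Gfi1-deficient and GFP-low monocytes were close in these factors, as in most genes. None of the 9 was at least 2-fold apart in either direction, and over 8010 genes 0.637% reached that size upwards and 1.27% downwards. Differences beyond the probe-set SD of 0.16 were seen for Batf (0.83), Junb (-0.35), Atf3 (-0.28) and Fosb (-0.17), and Fos, Fosl2, Jun, Jund and Atf4 lay within it. Many genes pass this limit. Of the 8010 genes, 21.6% had a more negative difference than Fosb, 12.3% than Atf3 and 8.76% than Junb. Only 1.12% had a larger positive difference than Batf. Against GFP-high cells, Gfi1-deficient monocytes were at least 2-fold higher in 6 of 9 factors, Fosb, Jun, Junb, Jund, Atf3 and Batf, against 9.53% of 8195 genes, and 0 were lower (7.81% of genes). The median difference was 1.28, against -0.02 over all genes. Genotype, sex and sort gate differ together in both comparisons and cannot be told apart. Gfi1-deficient monocytes also had higher sums than GFP-low monocytes of neutrophil precursor (13.53 against 10.98) and eosinophil markers (10.81 against 7.91). Their granulocyte sum was lower (14.22 against 15.57) and their monocyte sum close (15.07 against 15.17). The part of cell composition in the differences of the factors was not tested.

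**Figure D2:**
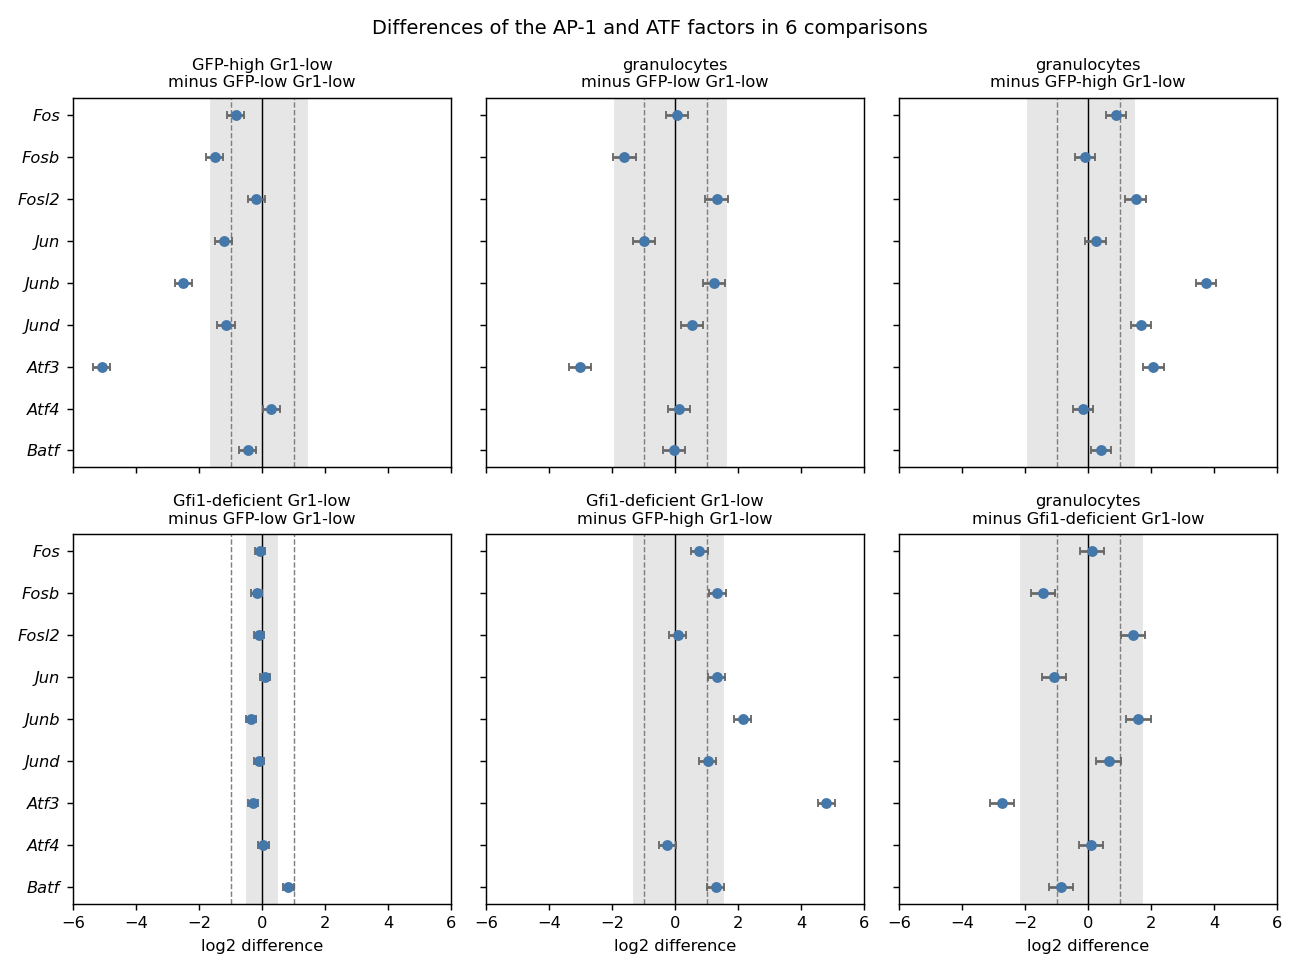
Log2 difference of each factor (x axis) in the 6 comparisons, 1 panel each. Points are the difference between 2 arrays, bars the probe-set SD, dashed lines 2-fold, and the grey band the 5th to 95th percentile of all named genes. Atf3 and Junb lie left of the band in GFP-high minus GFP-low cells, and Batf is the only factor outside the narrow band in Gfi1-deficient minus GFP-low monocytes.

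Other members of the Fos, Atf, Batf and Creb families were read in the same way. Of 14 listed relatives, 13 were on the array and 11 were above the floor in GFP-high or GFP-low cells, where 1 was at least 2-fold higher and 1 lower (median 0.12), close to the shares of 9.03% and 9.61% over all genes. A floor at the 20th percentile gave 2 lower. The higher was Jdp2, which encodes a Jun dimerization partner that represses AP-1 sites. It read 7.95 in Gfi1-deficient monocytes, 7.56 in GFP-low monocytes, 9.99 in GFP-high cells and 10.34 in granulocytes, so it was 5.40-fold higher in GFP-high cells and 6.85-fold higher in granulocytes than in GFP-low monocytes. These values rest on 1 probe set, because the other Jdp2 probe set was below the floor on all 4 arrays, and the median of both gave differences of 1.29 and 1.64. With plain probe sets only, those whose identifier carries no added letter, Jdp2 gave no difference because its brighter probe set was left out. The lower was Atf6, a sensor of endoplasmic reticulum stress, 3.73-fold lower in GFP-high cells and 3.84-fold lower in granulocytes than in GFP-low monocytes. Fosl1, which encodes Fra-1, was below the floor in GFP-low monocytes and at least 2.80-fold higher in granulocytes, at 6.66. Its other probe set read 5.22 there, and the median of both gave a difference of 0.77, under 2-fold. In Gfi1-deficient against GFP-low monocytes, 0 of 10 relatives were at least 2-fold apart, with 0.637% higher and 1.27% lower over all genes.

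Other immediate early genes were read to see whether the transcripts induced alongside Fos and Jun showed the same levels. Of 22 above the floor in GFP-high or GFP-low cells, 10 were lower in GFP-high cells by at least 2-fold and 2 higher, with a median of -0.95. Over all genes, 9.61% were lower and 9.03% higher by that size. Klf4, a monocyte transcription factor, was 25.6-fold lower, the nuclear receptor gene Nr4a1 5.95-fold lower and the cytokine inhibitor gene Socs3 3.47-fold lower. The 2 exceptions were Egr1, an immediate early zinc finger factor, 3.18-fold higher, and Myc, 2.51-fold higher. With the floor at the 60th percentile, Socs3 (-0.78) and Myc (0.23) were under 2-fold. Egr1 read 7.71 in Gfi1-deficient monocytes, 8.25 in GFP-low monocytes, 9.93 in GFP-high cells and 11.65 in granulocytes. GFP-high cells thus stood above both monocyte populations, where Fosb and Jun stood below them, and granulocytes were the highest.

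In granulocytes against GFP-low monocytes, of 23 immediate early genes, 4 were higher by at least 2-fold and 3 lower (median 0.33). Over all genes, 10.0% were higher and 18.2% lower by that size. Egr1 was 10.5-fold, Socs3 3.41-fold and the survival gene Ier3 3.09-fold higher, while Klf4 was 17.2-fold, Klf10 4.21-fold and Nr4a1 2.25-fold lower. Against GFP-high cells, granulocytes had higher levels by at least 2-fold for 10 of 23 (median 0.88), with 8.93% higher and 16.4% lower over all genes. Myc alone was lower by that size, at least 3.63-fold, and 0 were when the 60th percentile was taken as floor. The higher were led by Socs3 (11.8-fold), the antiproliferative gene Btg2 (4.62-fold) and the MAP kinase phosphatase gene Dusp1 (4.55-fold). In Gfi1-deficient against GFP-low monocytes, Ier3 was 3.81-fold and Socs3 2.15-fold higher and the phosphatase gene Dusp2 2.95-fold lower, out of 22 measured (median -0.15). Over all genes, 0.637% were higher and 1.27% lower by at least 2-fold. Dusp2 was at -0.33 with the higher floor.

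**Figure D3:**
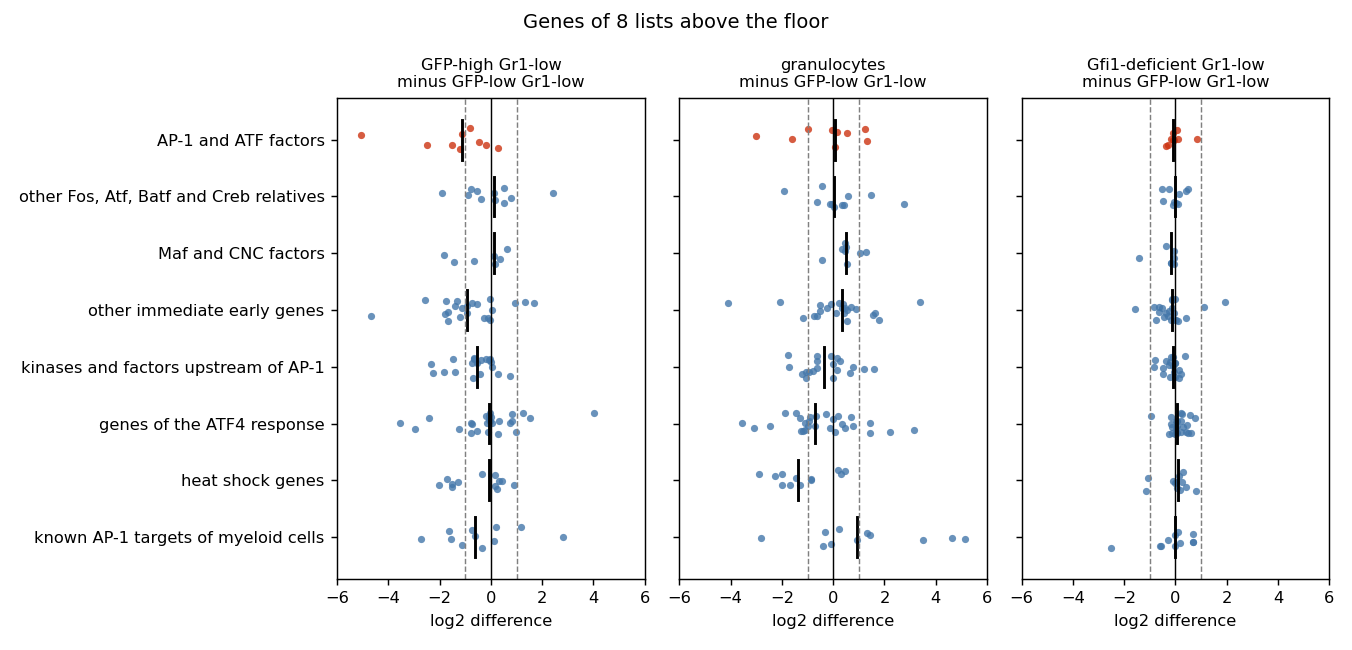
Log2 differences (x axis) of the genes above the floor in 8 gene lists (y axis), each population minus GFP-low monocytes. Each point is a gene, the black bar is the list median and dashed lines mark 2-fold. In the left panel the medians of the AP-1 and ATF factors (-1.14) and of the other immediate early genes (-0.95) lie furthest to the left, and in the right panel they lie at -0.10 and -0.15.

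Of 24 listed kinases and factors upstream of AP-1, which phosphorylate its subunits or bind Fos and Jun promoters, 20 were on the array. In GFP-high against GFP-low cells, 5 of 19 were at least 2-fold lower and 0 higher (median -0.55), with 9.61% and 9.03% over all genes. The 3 largest differences were in the Mef2 genes, whose products bind the Jun promoter. Mef2d was 5.03-fold, Mef2c 4.73-fold and Mef2a 3.54-fold lower, although the other Mef2d probe set read 7.18 and 7.29 in GFP-high and GFP-low cells, and the median of both differed by -1.22. In granulocytes against GFP-low monocytes, 5 of 20 were at least 2-fold lower and 2 higher (median -0.35), with 18.2% and 10.0% over all genes. The number lower was 3 with the values quantile normalized or the array medians made equal. Map2k4, the kinase that activates JNK, was 3.01-fold and Map2k3, a kinase of the p38 pathway, 2.32-fold higher. Mef2c was 3.44-fold, Map2k6 at least 3.31-fold and Mapk8, which encodes JNK1, 2.30-fold lower. Map2k6 was at -0.10 with the floor at the 60th percentile, and Mapk8 at -0.89 with the median of its probe sets. In Gfi1-deficient against GFP-low monocytes, 0 of 19 were at least 2-fold apart, with 0.637% higher and 1.27% lower over all genes.

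Genes of the ATF4 response, which include amino acid synthesis enzymes and aminoacyl-tRNA synthetases, included some higher and some lower, in shares close to those over all genes in GFP-high against GFP-low cells. In GFP-high against GFP-low cells, 3 of 26 were at least 2-fold higher and 4 lower (median -0.06), with 9.03% and 9.61% over all genes. Asns, the asparagine synthetase gene, was at least 16.3-fold higher, Chac1, a glutathione-degrading enzyme gene, at least 2.91-fold higher and the serine synthesis gene Phgdh 2.37-fold higher. The stress gene Nupr1 was at least 11.8-fold lower, Ddit4, an inhibitor of mTOR signalling, 7.78-fold lower and Ppp1r15a, the phosphatase subunit that ends the stress response, 5.36-fold lower. In granulocytes against GFP-low monocytes, 4 of 28 were at least 2-fold higher and 10 lower (median -0.70), with 10.0% and 18.2% over all genes. Asns was at least 8.81-fold, Chac1 at least 4.61-fold and the stress factor gene Ddit3 2.71-fold higher. Nupr1 was at least 11.8-fold, the serine synthesis gene Psat1 at least 8.56-fold and the threonyl-tRNA synthetase gene Tars 5.55-fold lower. The transcripts near the floor gave smaller differences with the floor at the 60th percentile, at 2.40 and 1.51 for Asns and -1.93 in both for Nupr1. Ddit4 was then at -1.67, Psat1 at -1.47 and Tars at -1.03, and Chac1 in granulocytes was under 2-fold (0.58). Chac1 was below that higher floor in both GFP-high and GFP-low cells, so its difference there was lost. In Gfi1-deficient against GFP-low monocytes 0 of 24 were at least 2-fold apart, with 0.637% higher and 1.27% lower over all genes. Asns was below the floor in both. The 4 kinases that trigger the response by phosphorylating eIF2 alpha were not called 2-fold apart in any of the 6 comparisons where they were measured. Eif2ak4 lay below the floor in Gfi1-deficient monocytes and granulocytes. Its difference from GFP-low or GFP-high cells was there only a lower bound. Between granulocytes and Gfi1-deficient monocytes it was not measured, which left 3 kinases. Eif2ak2 fell just short of the rule, at -0.99 in Gfi1-deficient minus GFP-low monocytes and -0.97 in GFP-high minus GFP-low cells. Eif2ak3 did so in granulocytes minus GFP-high cells, at 0.98.

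Heat shock genes, a further set of stress-induced transcripts, were lower by at least 2-fold in GFP-high than in GFP-low cells for 5 of 12 (median -0.09), with Bag3 4.12-fold, Hspa1a at least 3.24-fold and Hspa1b 2.85-fold lower. Over all genes, 9.61% were lower by at least 2-fold. In granulocytes 7 of 12 heat shock genes were at least 2-fold lower than in GFP-low monocytes (median -1.38), against 18.2% of all genes. They were led by Hspe1 (7.41-fold) and Bag3 (4.84-fold). In Gfi1-deficient against GFP-low monocytes, Hspa1a (2.08-fold) and Hspa1b (2.22-fold) were lower and the other 10 of 12 were not called. Over all genes, 1.27% were at least 2-fold lower there. Hspa1a and Hspa1b are near-identical copies whose signals may not be separate, and with the floor at the 60th percentile neither reached 2-fold in any of these comparisons (Hspa1a -0.07, Hspa1b -0.95), while Bag3 was at -1.38 in both GFP-high cells and granulocytes. The part of stress during sorting in the levels of the AP-1 factors was not tested.

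Known AP-1 targets of myeloid cells did not share a direction. In GFP-high against GFP-low cells, 2 of 11 were at least 2-fold higher and 4 lower (median -0.60), with 9.03% and 9.61% over all genes. The gelatinase gene Mmp9 was 6.96-fold and the cytokine gene Tnf 2.23-fold higher, while the chemokine gene Ccl2 was 6.67-fold, the lipopolysaccharide co-receptor gene Cd14 3.12-fold and the heme oxygenase gene Hmox1 2.91-fold lower. A floor at the 60th percentile put Tnf at 0.58 and Ccl2 at -1.19. In granulocytes, 5 of 11 were at least 2-fold higher than in GFP-low monocytes and 1 lower (median 0.93). Over all genes, 10.0% were higher and 18.2% lower by that size. Mmp9 was 35.2-fold, the interleukin gene Il1b 25.0-fold and the chemokine gene Cxcl2 11.5-fold higher, and Ccl2 was at least 7.07-fold lower, or -1.19 with that higher floor. In Gfi1-deficient monocytes 1 of 11 was at least 2-fold apart from GFP-low monocytes, Mmp9 at 5.73-fold lower. Over all genes, 0.637% were higher and 1.27% lower there. A floor at the 60th percentile gave -1.65 for Mmp9, and one at the 20th percentile gave 2 lower genes. Mmp9 is also a granulocyte marker, and the summed granulocyte markers were 14.22, 15.57, 16.66 and 16.92 in Gfi1-deficient monocytes, GFP-low monocytes, GFP-high cells and granulocytes.

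Finally, genes with the most similar profiles were sought for the 7 factors that spanned at least 1 log2 unit. Likeness was the Euclidean distance between log2 levels centred on the mean of each gene over the 4 arrays, among 8143 genes above the floor on at least 2 arrays. With 4 arrays, many genes lie close to any profile. The nearest to Atf3 were Irf5, an interferon regulatory factor of monocytes and macrophages (distance 0.15), the chemokine gene Ccl3 (0.68) and the cathepsin gene Ctss (0.71). Irf5 read 10.71, 10.91, 6.03 and 8.00 in Gfi1-deficient monocytes, GFP-low monocytes, GFP-high cells and granulocytes, the same order as Atf3. Nearest to Junb were Hacd4 (0.45), the phagosomal metal transporter gene Slc11a1 (0.53) and L1cam (0.53). Nearest to Jund were the antiproliferative gene Btg1 (0.06), Pqlc3 (0.09) and Arhgef3 (0.10).

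The nearest to Fosb were Slc15a4, a lysosomal peptide transporter gene (distance 0.030), Ikbkb, the kinase that activates NF-kappaB (0.11), and the DNA polymerase gene Polb (0.11). Nearest to Jun were Mfsd5 (0.10), the shedding protease gene Adam17 (0.10) and the thymosin gene Tmsb10 (0.12). Nearest to Fosl2 were the lysosomal gene Cln3 (0.07), Vpreb3, a gene of B cell precursors (0.08), and the stress gene Sesn2 (0.09). Nearest to Batf were the prostaglandin receptor gene Ptger4 (0.14), Slc12a7 (0.17) and Cltb (0.18). Among the 9 factors themselves, Fosb and Jun were the closest pair (0.44), followed by Fos and Jund (0.57), and Fosl2 and Atf3 were the farthest apart (4.55).

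**Figure D4:**
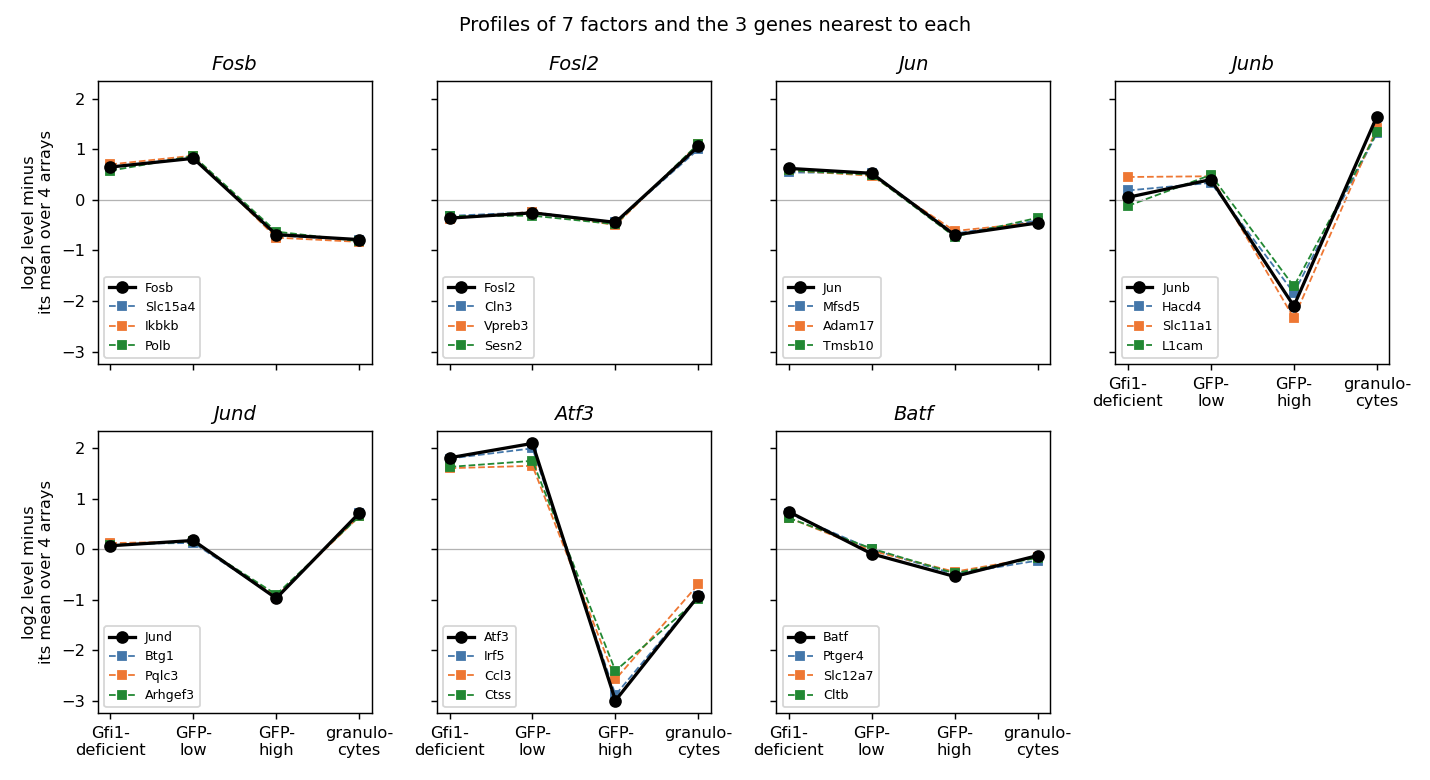
Log2 level minus its mean over the 4 arrays (y axis) for 7 factors (black circles) and the 3 genes with the nearest profiles (coloured squares), on the 4 arrays (x axis). Lines join points of a gene and carry no order. Atf3 and Junb are lowest in GFP-high cells, Fosl2 is highest in granulocytes, and Batf is highest in Gfi1-deficient monocytes.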

How the data were processed

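Per the labels, total RNA of 4 sorted bone marrow populations was labelled with biotin from 6 µg and hybridised to Affymetrix mouse arrays, 1 array each. The deposited values are on a log2 scale, as inferred from their range of 2.70 to 14.50. How the authors corrected, summarised and normalized them, and the base of the log, is not given in the sources read for this report. Array medians lay between 5.91 and 6.01, so no further scaling was applied. If the arrays were forced to a common distribution before deposit, a shift shared by most transcripts would not show. Probe sets were named from the platform annotation, which can be old. Of 22690 probe sets, 20380 had 1 gene, of which 20351 were matched by gene identifier to the RefSeq gene table of GRCm38.p6. The 691 with several genes and 64 control probe sets were left out. The brightest probe set by mean stood for each gene. Values below the floor, the 40th percentile, were raised to it, which makes such a difference a lower bound, given as "at least".

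With 1 array a group no test was made. A gene counted as higher or lower when its log2 difference reached 1 in size, so a gene below the floor on 1 array may be further apart than its bound and not be called. The probe-set SD is the SD, over 2658 to 2847 genes, of the difference between 2 probe sets of a gene, divided by the square root of 2. Counting was tested on simulated data. Of the other lists, the 3 genes with the largest difference in each direction were eligible to be named. The factors, lists and rules were chosen with earlier results of these data known. Arrays have no read depth, and their number limits the precision. Computation used Python 3.11.15, pandas 2.3.3 and numpy 2.4.6. A total of 6 alternatives were tried, on the floor, the scaling and the choice of probe set.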

Additional observations from a re-analysis of the deposited data

How the results depend on the processing

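The 9 factors were recomputed with the floor at the 20th or the 60th percentile, with quantile normalization, with array medians made equal, with the median of the probe sets of a gene, and with probe sets of plain IDs only. Of 324 such values, 319 moved by less than the probe-set SD, 5 moved more and 0 changed sign after a 2-fold call. The counts of factors at least 2-fold apart were the same under each alternative, except that the median of the probe sets brought Jun in granulocytes minus GFP-low monocytes from -0.98 to -1.07, past 2-fold. With the floor at the 60th percentile, Atf3 was at -4.28 in GFP-high minus GFP-low cells, 1.27 in granulocytes minus GFP-high cells and 4.0 in Gfi1-deficient minus GFP-high cells. With the median of the probe sets, Atf4 was at 0.22 in Gfi1-deficient minus GFP-low monocytes and 0.09 in Gfi1-deficient minus GFP-high cells.

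The same alternatives were applied to the other lists, a step added after the data were seen. Of 504 list counts, 470 stayed within 1.5 times. Of the counts given above, the heat shock genes that were 2-fold lower numbered 2 in GFP-high minus GFP-low cells and 4 in granulocytes minus GFP-low monocytes with the floor at the 60th percentile. In Gfi1-deficient minus GFP-low monocytes, 1 ATF4 response gene in place of 0 was higher with the median of the probe sets and 1 lower with quantile normalization. Further, of 435 values of named genes 19 crossed the 2-fold rule and 0 reversed, not counting values where both arrays lay below the floor. Most of these had a level near the floor. Those not given beside the genes concerned are Hspa1b in Gfi1-deficient minus GFP-low monocytes with plain probe sets (-0.98), Fosl1 in granulocytes minus GFP-high cells with the median of the probe sets (0.77), and Irf4 in GFP-high minus GFP-low cells with that median (-0.87) or the floor at the 60th percentile (-0.26). No paired analysis was possible because each population has 1 array and the labels carry no replicate numbers.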

Other observations

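The Maf and CNC factors are bZIP proteins that bind antioxidant and Maf elements. Among the Gr1-low populations they differed mainly in the Bach genes, which encode heme-regulated repressors. In GFP-high against GFP-low cells, 2 of 7 were at least 2-fold lower and 0 higher, with 9.61% and 9.03% over all genes. Bach1 read 10.77 in Gfi1-deficient monocytes, 11.14 in GFP-low monocytes, 9.32 in GFP-high cells and 10.72 in granulocytes, so it was 3.54-fold lower in GFP-high than in GFP-low cells. Bach2 read 5.19, 6.63, 4.91 and 6.97 in that order, which puts Gfi1-deficient monocytes 2.71-fold and GFP-high cells at least 2.74-fold under GFP-low monocytes. With the floor at the 60th percentile, Bach2 was below it on these 3 arrays. Of 8 measured members in granulocytes against GFP-low monocytes, Mafg (2.42-fold) and the CNC factor gene Nfe2 (2.09-fold) were at least 2-fold higher and 0 lower. Over all genes, 10.0% were higher and 18.2% lower by that size.

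The interferon regulatory factors that pair with Batf had another profile than Batf. Irf8 read 10.80 in both Gfi1-deficient and GFP-low monocytes, 7.09 in GFP-high cells and 7.23 in granulocytes. Irf4 read 5.99, 7.06, 4.24 and 5.85 in Gfi1-deficient monocytes, GFP-low monocytes, GFP-high cells and granulocytes, so Gfi1-deficient monocytes had 2.10-fold less than GFP-low monocytes, while Batf was 1.78-fold higher there. That Irf4 difference was -0.63 with the median of its probe sets and -0.26 with the floor at the 60th percentile, both under 2-fold. Spi1, which encodes the myeloid factor PU.1, read 10.85, 10.85, 10.99 and 11.62 in the same order.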
